A study of Mus musculus with 16 samples.

Results

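A group of 10 genes was followed through the bulk RNA sequencing of mouse hamstring muscle in histidyl-tRNA synthetase (HRS) induced myositis. They encode 8 integrin subunits carried by leukocytes (*Itgal*, *Itgam*, *Itgax*, *Itgb2*, *Itga4*, *Itgb7*, *Itgae* and *Itga1*) and 2 adhesion ligands of activated endothelium (*Icam1* and *Vcam1*). They were chosen by gene symbol, all 10 were found among the 26382 genes of the deposited table, and all 10 passed the filter on low values that left 16414 genes for testing. Female C57BL/6 mice aged 8 to 10 weeks were used, and muscle was taken 14 days after injection. According to the titles, 5 mice (m862 to m866) received recombinant murine HRS (3 to 5 mg/mL) in the left hamstring and PBS in the right, which gives 5 HRS legs and 5 contralateral PBS legs. The protocol instead describes bilateral HRS at 50 µL per side, and the titles were followed. The PBS-only group held 4 libraries, both legs of mice m867 and m868, and so represents 2 animals. A further 2 mice (m860 and m861) carried the treatment label HRS, but their titles named a fusion with MBP at 2 to 3 mg/mL. These 2 libraries, with no leg stated, are called HRS-MBP. No group received MBP alone, so fusion partner and HRS preparation cannot be told apart.

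Integrins are paired alpha and beta chains that tie a cell to other cells or to the matrix. Leukocytes arrest on inflamed vessels when LFA-1 (*Itgal* with *Itgb2*) and Mac-1 (*Itgam* with *Itgb2*) bind ICAM-1, and when VLA-4 (*Itga4* with *Itgb1*) binds VCAM-1. Endothelial cells display both ligands after exposure to inflammatory cytokines. The chain encoded by *Itgb7* pairs either with that of *Itga4*, to bind MAdCAM-1, or with that of *Itgae* (CD103), to bind E-cadherin. CD103 and the collagen-binding chain of *Itga1* (CD49a) are known from tissue-resident T cells, while *Itga1* is also used by vascular and stromal cells.

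Promoter sequences are shown for *Icam1*, the ligand whose promoter is a textbook target of inflammatory signals, and *Itgam*, a myeloid integrin gene, because both genes rose with HRS. Each is the 250 bases before the transcription start in RefSeq (build GRCm38.p6), on the plus strand, at chr9:21015690-21015939 for *Icam1* and chr7:128062390-128062639 for *Itgam*. Capitals mark the letters that matched a motif on either strand.
Icam1: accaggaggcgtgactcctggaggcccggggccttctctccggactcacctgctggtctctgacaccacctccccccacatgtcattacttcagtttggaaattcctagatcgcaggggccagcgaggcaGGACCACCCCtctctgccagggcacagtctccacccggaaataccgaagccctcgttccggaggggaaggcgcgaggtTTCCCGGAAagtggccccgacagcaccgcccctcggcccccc
Itgam: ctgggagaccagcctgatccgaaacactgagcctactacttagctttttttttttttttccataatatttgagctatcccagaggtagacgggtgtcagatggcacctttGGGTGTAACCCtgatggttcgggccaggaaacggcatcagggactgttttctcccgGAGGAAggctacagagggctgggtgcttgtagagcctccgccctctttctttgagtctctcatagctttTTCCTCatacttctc
Promoters of 6 of the 10 genes were matched in the table (*Icam1*, *Itga1*, *Itga4*, *Itgam*, *Itgax* and *Itgb7*), and 4 motifs were searched on both strands, from 250 bases before to 50 bases after the start. The NF-kappaB motif GGGNNNNNCC, a loose pattern, was found in 4 of the 6 and in 50.8% of 32851 promoters. A match is therefore common and need not be a known NF-kappaB site, and a known site may be left unmarked. In *Icam1* this pattern covered bases 120 to 111 before the start, and in *Itgam* it matched on both strands in overlapping windows, over bases 140 to 131 and 139 to 130. The gamma-activated motif TTCNNNGAA, the letters read by interferon-activated STAT factors, was found only in *Icam1* of the 6, at bases 42 to 34 before the start, and in 8.30% of all promoters. The PU.1 core GAGGAA, read by a myeloid factor, was found in *Itgam* and *Itgb7* and in 28.3% of all promoters. *Itgax* held none of the 4 motifs in its window, and the TATA box TATAAA was found in *Icam1* only, after the start. Matches describe the letters and do not show binding.

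The libraries had totals of 726797 to 1252358 normalized counts and an implied depth of 8600000 to 73900000 reads, with the shallowest libraries among the PBS-only legs. The mitochondrial share was 3.41% to 11.1% in HRS legs and 9.69% to 13.1% in PBS legs of either kind. In whole muscle, more leukocytes and more RNA per cell cannot be told apart, and this applies to each difference below. Leukocyte markers (*Ptprc*, *Cd52*, *Cd53*, *Coro1a*, *Laptm5* and *Arhgdib*) summed to 291 to 1274 in HRS legs, 34.1 to 70.3 in contralateral legs, 26.9 to 61.8 in PBS-only legs and 1101 to 1234 in HRS-MBP libraries. None of them was at or under 3 reads throughout a group. Within the HRS legs, m866 had the lowest and m864 the highest of these sums. The part of leukocyte number in the results was not tested.

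The beta-2 integrin genes had the 4 largest log2 fold changes of the 10. *Itgal* (ENSMUSG00000030830.18, protein coding, chr7:127296260-127335138 on GRCm38, the build of the positions in the table) was at 39.4, 36.7, 127, 31.3 and 20.9 normalized counts in the HRS legs of m862, m863, m864, m865 and m866. In the PBS legs of the same mice it was at 0.769, 1.15, 3.05, 1.15 and 2.05. Every HRS leg lay above every PBS leg, and the leg of m864 lay far above the other 4. The ratio of the leg means was 31.3, and the log2 fold change, on the log2(normalized count + 0.5) scale used throughout, was 4.40 (SE 0.38, adjusted p = 1.94e-06, limma with Benjamini-Hochberg over 16414 genes). *Itgb2* (ENSMUSG00000000290.13, chr10:77530252-77565708), the shared beta chain, was at 110, 172, 322, 122 and 54.2 in HRS legs and 3.91, 8.40, 12.6, 5.59 and 8.94 in PBS legs, in the same order of mice. Its log2 fold change was 4.08 (SE 0.39), and the groups did not overlap. *Itgax* (ENSMUSG00000030789.9, chr7:128129547-128150657), the CD11c chain of dendritic cells and some macrophages, was at 18.6, 34.5, 44.2, 26.9 and 7.54 against 0.513, 0.970, 1.02, 0.618 and 1.10, a log2 fold change of 4.13 (SE 0.37). The HRS leg of m866 was again lowest, at 6.83 times its own PBS leg, whereas the other 4 mice had ratios of 35.6 to 43.6. *Itgam* (ENSMUSG00000030786.18, chr7:128062640-128118491), the CD11b chain of macrophages and neutrophils, had the smallest rise of the 4, with 81.8, 137, 171, 105 and 56.0 against 4.01, 9.62, 12.5, 6.46 and 10.8 (log2 fold change 3.58, SE 0.32). Its ratio of means was 12.7, below the 13.6 of *Itgb7*. *Itgal*, *Itgam* and *Itgax* lie on 1 strand of chromosome 7, and *Itgam* and *Itgax* are 11.1 kb apart. *Itgad*, the next gene of the row at 3.72 kb from *Itgax*, did not pass the filter and was at 0.0452 to 0.359 in HRS legs.

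The genes of the other 2 beta-chain families differed more among themselves. *Itgb7* (ENSMUSG00000001281.10, chr15:102215995-102231944) was at 29.8, 32.7, 91.5, 23.1 and 12.3 in HRS legs and 1.54, 2.57, 3.88, 2.26 and 3.69 in the PBS legs, a log2 fold change of 3.29 (SE 0.41, adjusted p = 2.1e-05, limma). *Itga4* (ENSMUSG00000027009.18, chr2:79255426-79333123) was at 28.9, 33.5, 68.1, 31.3 and 22.1 against 10.0, 10.7, 9.69, 8.22 and 6.82, a log2 fold change of 1.87 (SE 0.25). Both had all HRS legs above all PBS legs, but the ratio of means was 13.6 for *Itgb7* and 4.05 for *Itga4*. *Itgae* (ENSMUSG00000005947.11, chr11:73090583-73147446) was low in every library, with 0.717 to 1.62 in HRS legs, from 23 to 102 implied reads, and 0.160 to 0.404 in PBS legs, from 5 to 15 reads. Its ratio of means was 3.88 and its log2 fold change 1.02 (SE 0.18, adjusted p = 0.000398, limma), just past the fold threshold of 1. Its mean was 0.288 in contralateral and 0.330 in PBS-only legs, under the filter minimum of 0.5, against 1.12 in HRS legs and 1.41 in HRS-MBP libraries, so it passed the filter only through the groups where it was high, and its call is no support for a change. Without m862, m863 or m864 this fold was 0.952, 0.995 and 0.936, and *Itgae* was no longer called. *Haspin*, a gene on the opposite strand inside *Itgae*, was at up to 3.74, and since strand use in the counting is not stated, the low *Itgae* values are uncertain.

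*Itga1* (ENSMUSG00000042284.10, chr13:114953096-115101964) was the exception. It was at 32.1, 27.4, 34.5, 27.5 and 42.1 in HRS legs and 30.01, 27.01, 27.9, 25.9 and 32.9 in PBS legs. The groups overlapped, although the HRS leg was the higher in 5 of 5 mice, by ratios of 1.02 to 1.28. A gene higher in the HRS leg of all 5 mice was common, at 26.3% of tested genes. Its log2 fold change was 0.17 (95% interval -0.08 to 0.43, adjusted p = 0.22, limma), which did not pass the test. With every library set to the same total it was 0.58 (adjusted p = 0.00236), beside a shift of the median gene to 0.46, and still under the fold threshold. *Pelo*, inside *Itga1* on the same strand, reached 16.3 normalized counts, so some reads may be shared.

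Both ligands rose, with fold changes below those of the beta-2 genes (a difference that was not tested). *Icam1* (ENSMUSG00000037405.8, chr9:21015985-21028817) was at 50.4, 52.4, 149, 43.6 and 47.3 in HRS legs and 6.79, 7.96, 7.90, 8.35 and 8.50 in PBS legs. The log2 fold change was 2.87 (SE 0.28, adjusted p = 2.8e-06, limma), and 2.54 without m864. *Vcam1* (ENSMUSG00000027962.14, chr3:116109949-116129688) was at 31.7, 30.7, 94.3, 37.0 and 23.4 against 4.04, 5.59, 6.88, 5.35 and 7.86 (log2 fold change 2.61, SE 0.29). Apart from m864, the HRS legs were close together for *Icam1*, at 43.6 to 52.4, and no HRS leg overlapped a PBS leg for either ligand.

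**Figure D1:**
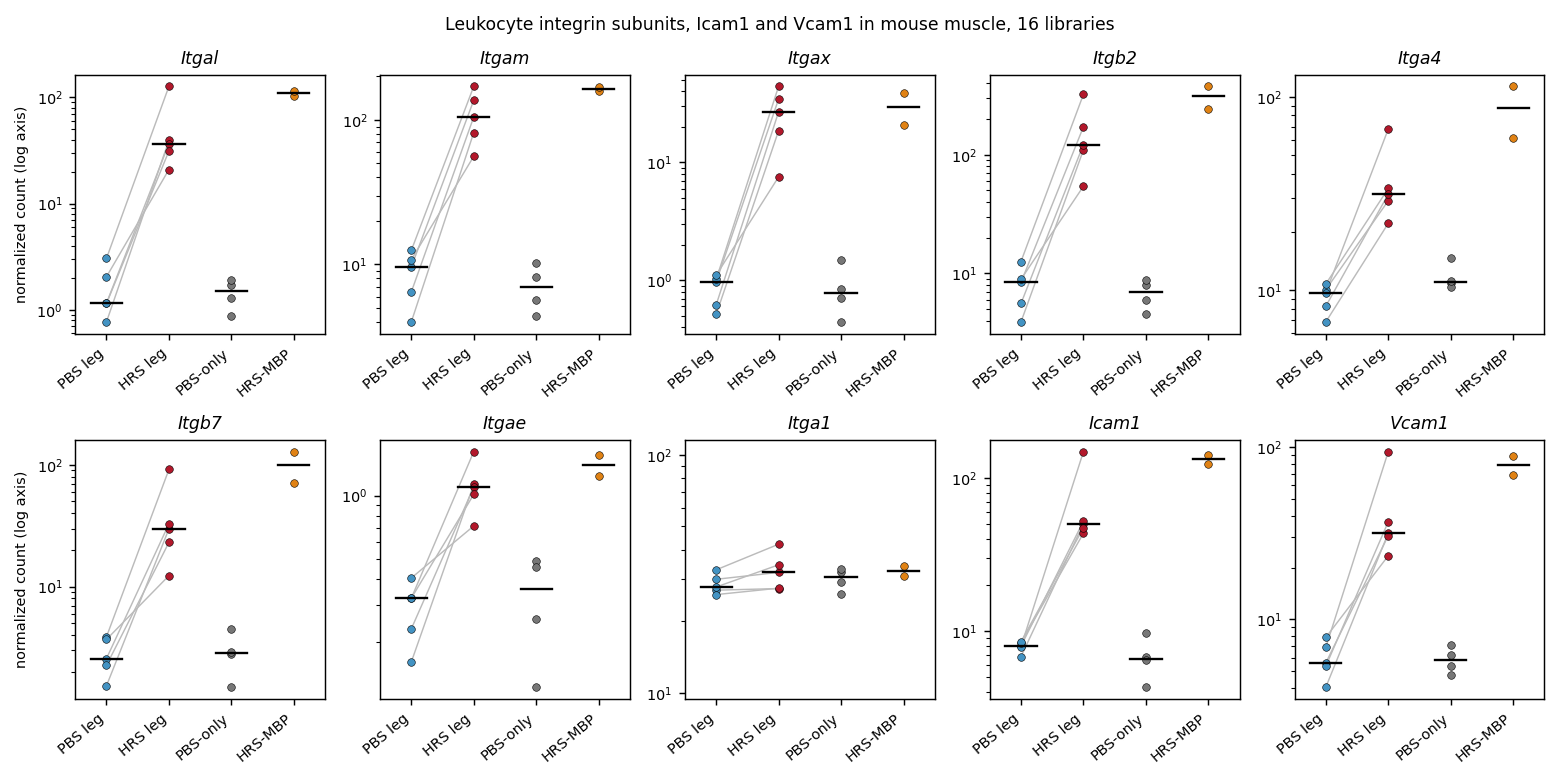
Normalized counts of the 10 genes (log axis) in each library of the 4 groups, with grey lines joining both legs of a mouse and black bars at the group medians. In 9 panels the HRS and HRS-MBP points lie above all PBS points, while *Itga1* stays between 25.9 and 42.1 in all 16 libraries.

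In all, 9 of the 10 genes were called higher in HRS legs than in contralateral legs, where 16.9% of all tested genes were. They include *Itgae*, which the filter admitted only through its HRS and HRS-MBP values, and are 8 without it. The median log2 fold change was 3.08 for the 10 genes and 0.08 for all genes tested. Over all genes, 2781 were called higher and 1029 lower, against 2093 and 1632 with quantile normalization (median -0.16) and 4240 and 320 with every library set to the same total (median 0.46, chosen after the data were seen), and 8 and 9 of the 10 genes were called under these scalings. Every HRS leg lay above every contralateral leg for 9 of 10 genes, as for 18.3% of tested genes, and above all 9 PBS legs for the same count, as for 16% of them. Exact sign flips over the 5 mice gave p = 0.0625 (two-sided) for all 10 genes, *Itga1* included, which is the smallest value that 5 mice allow. The 8 genes other than *Itgae* and *Itga1* remained called under all 17 alternative settings of this comparison.

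The contralateral PBS legs were compared with PBS-only mice to ask whether the muscle without HRS differed in mice that had HRS in the other leg. None of the 10 genes was called, and 1 gene of all tested was (0.00609%, limma, with 902 genes, 5.5%, at an unadjusted p below 0.05 and 0 of them among the 10). The count for the 10 was also 0 with limma-voom. Differences ran from -0.36 for *Itga4* (95% interval -0.91 to 0.20) to 0.25 for *Icam1* (-0.37 to 0.87), and 0 of the 10 genes had groups that did not overlap, as 2.58% of all tested genes did. For *Itgb2* the interval reached from -0.74 to 1.01, so that a doubling was at its edge.

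Against PBS-only mice, 8 of the 10 genes were called higher in HRS legs, where 18.9% of all tested genes were. *Itgal* had a log2 fold change of 4.46 (SE 0.41), *Itgb2* of 4.22 (SE 0.41), *Icam1* of 3.12 (SE 0.29) and *Itga4* of 1.51 (SE 0.26). *Itgae* was at 0.121 to 0.485 in PBS-only legs and had a fold of 0.97 (SE 0.19, adjusted p = 0.000842, limma), just under the threshold. It was called with the lowest pseudocount (1.502), limma-voom (1.999), an equal total for every library (1.19), without m866 (1.06) and without m868 (1.22). *Itga1*, at 26.0 to 33.1 in PBS-only legs, gave 0.10 (SE 0.13), with a sign that turned under quantile normalization and median-of-ratios scaling. With both legs of each PBS-only mouse averaged, the count of called genes was again 8.

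The HRS-MBP libraries also exceeded PBS-only mice, with 9 of 10 genes called higher (8 without *Itgae*, which the filter admitted only through its high groups) against 20.7% of all tested genes. *Itgal* was at 104 and 115 normalized counts, *Itgb2* at 242 and 377, *Itgb7* at 71.1 and 128, *Icam1* at 124 and 141, and *Vcam1* at 69.2 and 89.4. The log2 fold changes were 5.85 for *Itgal* (SE 0.53), 5.41 for *Itgb2* (SE 0.53), 4.88 for *Itgb7* (SE 0.56), 4.24 for *Icam1* (SE 0.38) and 3.65 for *Vcam1* (SE 0.39). *Itgae* lost its call with a pseudocount of 2 (0.55), quantile normalization (0.73) and without m867 (0.97). *Itga1* was at 34.1 and 31.1 and was not called. This comparison shares its controls with the preceding one. Both count the legs of a PBS-only mouse as separate, so their SEs may be too small.

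Set directly against the HRS legs, none of the 10 genes was called in HRS-MBP, and 0.463% of tested genes were (limma, 76 genes). At an unadjusted p below 0.05 there were 6 of the 10, beside 14.4% of all tested genes. With limma-voom 0 of the 10 and 0.682% of all genes were called. *Itga4* came nearest, at 61.2 and 113 against 22.1 to 68.1, with a log2 difference of 1.28 (95% interval 0.58 to 1.97, adjusted p = 0.104). *Itgb7* was 1.64 higher (0.48 to 2.79) and *Itgal* 1.39 higher (0.31 to 2.47), whereas *Itgax* gave 0.31 (-0.73 to 1.36). For each of the 10 genes at least 1 HRS leg reached above the lower HRS-MBP library, and both HRS-MBP libraries lay above every HRS leg for 7.1% of all tested genes. Without mouse m864, 6 of the 10 genes were called higher (*Itgal*, *Itgb2*, *Itga4*, *Itgb7*, *Icam1* and *Vcam1*), as were 509 of all tested genes (3.1%). The comparison therefore depends on this mouse.

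**Figure D2:**
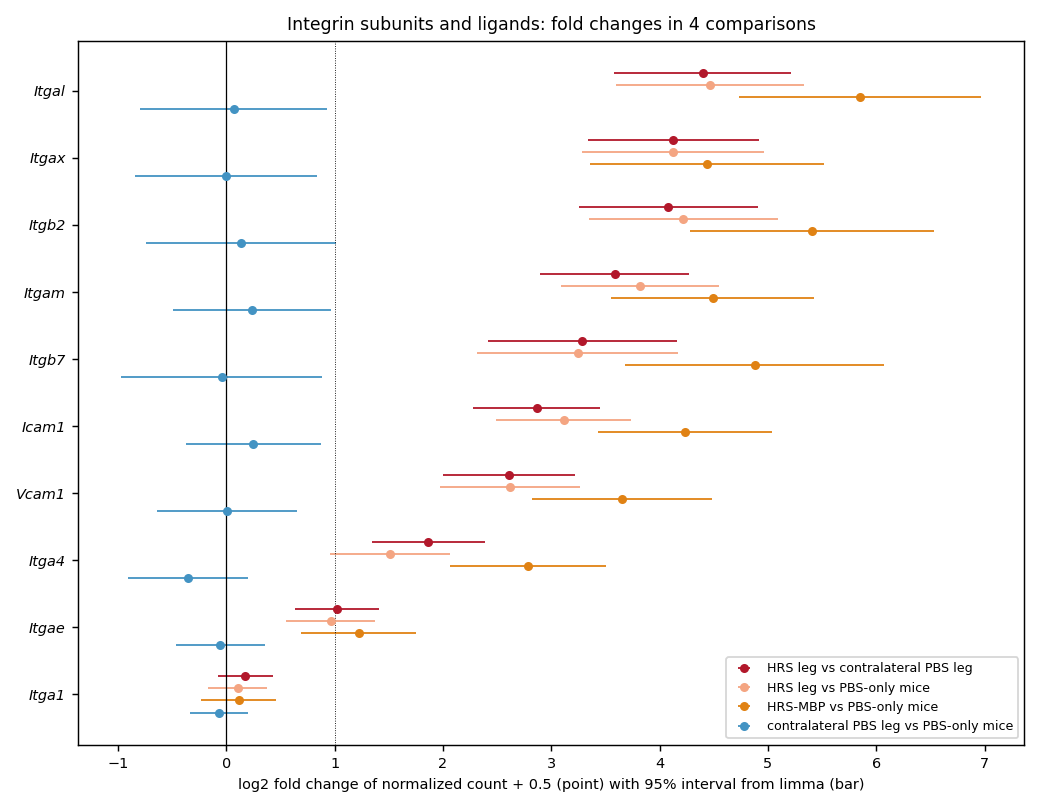
Log2 fold changes (points) with 95% intervals (bars) of the 10 genes in 4 comparisons, with a dotted line at the call threshold of 1. The comparison of contralateral PBS legs with PBS-only mice sits around 0 for all 10 genes, and *Itga1* lies near 0 in all 4 comparisons.

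Values were also divided by the kilobases of exon in the annotation used here. Since the counting is not given, the order of genes on this scale is approximate. *Itgb2* was the most abundant of the 10 in HRS legs at 52.5 ± 34.3 normalized counts per kb (SD, n = 5). It was followed by *Icam1* at 27.1 ± 17.8, *Itgam* at 22.4 ± 9.17, *Itgb7* at 14.1 ± 11.6, *Vcam1* at 8.72 ± 5.79, *Itgal* at 8.01 ± 6.76, *Itgax* at 6.08 ± 3.27, *Itga4* at 3.77 ± 1.85, *Itga1* at 2.98 ± 0.55 and *Itgae* at 0.291 ± 0.085. All neighbours in this order overlapped in their ranges except *Itga1* and *Itgae*. In contralateral legs the order was *Icam1* at 3.12 ± 0.26, *Itgb2* at 2.66 ± 1.13, *Itga1* at 2.62 ± 0.25, *Itgam* at 1.76 ± 0.70, *Vcam1* at 1.19 ± 0.30, *Itgb7* at 1.04 ± 0.37, *Itga4* at 0.931 ± 0.16, *Itgal* at 0.256 ± 0.14, *Itgax* at 0.195 ± 0.060 and *Itgae* at 0.0750 ± 0.025. There, *Itga4* lay above *Itgal* and *Itgax* above *Itgae* without overlap. *Itga1* thus ranked 3 of 10 in contralateral legs, 1 of 10 in PBS-only legs at 2.75 ± 0.30 (SD, n = 4) and 9 of 10 in HRS legs, at nearly the same level.

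Ratios within a library depend little on how libraries were scaled, and 14 were compared between HRS and contralateral legs by exact permutation (two-sided, 5 against 5, smallest possible p = 0.00794, not adjusted for the 14). This test ignores that both legs come from 1 mouse. Exact sign flips over the 5 mice gave p = 0.0625, the smallest they allow, for 8 of the 14 ratios and a larger p for the others, so that no ratio could pass 0.05 in the paired test. Among beta-2 partners, the log2 ratio of *Itgam* to *Itgb2* fell from 0.13 ± 0.12 to -0.37 ± 0.35 (SD, n = 5; lower in 5 of 5 mice, exact p = 0.0238). With a mouse left out this p was 0.0286, the smallest that 4 mice allow, to 0.0857. *Itgal* to *Itgb2* differed by 0.32 (higher in 4 of 5 mice, exact p = 0.143), and *Itgax* to *Itgb2* by 0.05 (exact p = 0.841), with directions that depended on the pseudocount. *Itgb2* to the pan-leukocyte gene *Ptprc* (CD45) differed by 0.15 ± 0.40 (SD of 5 mice, -0.19 to 0.77 over the mice, exact p = 0.413).

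Against cell markers, *Itgal* rose more than the T cell gene *Cd3e*, by 2.29 on the log2 scale (1.61 to 2.78 over the mice, exact p = 0.00794). *Cd3e*, at 2.11, lay below the median log2 fold change of the 7 T cell markers (2.60). *Itgam* rose less than the macrophage gene *Adgre1*, by a log2 difference of -0.54 (-0.76 to -0.34, exact p = 0.00794). *Adgre1* had the largest log2 fold change of the 7 macrophage markers (4.13, with a median of 3.37 for the list), and the 3.58 of *Itgam* lay above that median. *Itga4* rose relative to *Itgb1* by 1.17 (0.84 to 1.80, exact p = 0.00794), since *Itgb1* itself had a log2 fold change of 0.70. *Itgb7* was higher relative to *Itga4* by 1.42 (exact p = 0.0159, and 0.13 by exact sign flips), in 4 of 5 mice, while m866 gave -0.013. Leaving out m862, m863, m864 or m865 gave an exact p of 0.0571 for it. *Itgae* relative to its partner *Itgb7* had a log2 difference of -2.26 (-3.03 to -1.18) and relative to *Cd3e* of -1.09 (-1.73 to -0.58), given as values with no test read from them, since *Itgae* rests on 5 to 15 implied reads in PBS legs and passed the filter only through its high groups. With the lowest pseudocount tried they were -1.87 and -0.97. *Itga1* to *Itgb1* gave -0.52 (exact p = 0.0794), and -0.68 without m866 (exact p = 0.0286).

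The ligands were set against *Pecam1* (CD31), an endothelial gene at 99.0 to 120 in HRS legs and 78.7 to 104 in PBS legs. *Pecam1* had the largest log2 fold change of the 8 endothelial markers (0.35, with a median of 0.06 for the list). *Icam1* rose relative to it by 2.52 (2.16 to 3.68 over the mice) and *Vcam1* by 2.27 (1.40 to 3.20), each in 5 of 5 mice with exact p = 0.00794. *Vcam1* to *Icam1* gave -0.25 (-0.89 to 0.36, exact p = 0.151). Macrophages also make both ligands, and the cells that made these transcripts cannot be told from whole muscle.

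**Figure D3:**
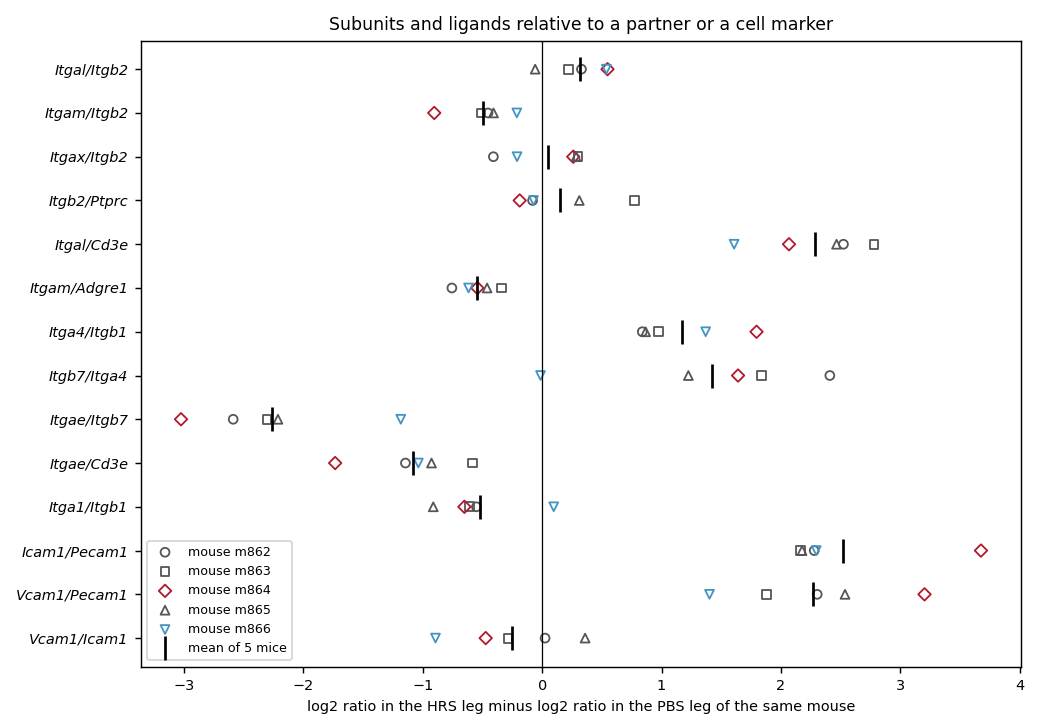
Change of 14 log2 ratios between the HRS leg and the PBS leg of each of 5 mice (symbols) with their mean (black bar). *Icam1* and *Vcam1* to *Pecam1* and *Itgal* to *Cd3e* lie above 1 in all 5 mice. The *Itgae* ratios are drawn as values only, since *Itgae* passed the filter only through its high groups. Their size depends on the pseudocount.

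Other integrin subunits were examined next. Of 18 listed, 17 were tested, 2 were called higher and 0 lower in HRS against contralateral legs, with a median log2 fold change of 0.71 (0.08 for all genes, 16.9% of which were called higher and 6.27% lower). The called genes were *Itgb3* (1.78, SE 0.33, adjusted p = 0.000551, limma), which pairs with the alpha-v chain on macrophages, and *Itga5* (1.70, SE 0.27, adjusted p = 0.000144), which pairs with beta-1 to bind fibronectin. *Itga5* was at 27.02 to 89.8 in HRS and 14.2 to 22.6 in PBS legs without overlap, whereas *Itgb3* in the HRS leg of m866 (5.11) lay below the PBS leg of m864 (5.40). Several others were under the fold threshold with an adjusted p below 0.05, among them *Itgb1* (0.70), *Itgav* (0.73), *Itga9* (0.90), *Itga2* (0.90) and *Itga2b* (0.84). Values for the remaining tested subunits were 0.76 for *Itgb8*, 0.78 for *Itga11*, 0.71 for *Itga10*, 0.25 for *Itga7*, 0.20 for *Itga6*, 0.13 for *Itgb5*, 0.08 for *Itga8*, -0.16 for *Itgb4*, -0.19 for *Itga3* and -0.39 for *Itgb6*. The count depended on scaling: with every library set to the same total, a setting chosen after the data were seen, 10 of the 17 were called, as were 25.7% of all genes in the higher direction, and the median of all genes moved to 0.46. It was 4 with the lowest pseudocount, 5 with limma-voom and 6 without m866, where the share of all genes called higher was 19.1%, 19.6% and 21.2%. In HRS-MBP against PBS-only mice, 3 of the 17 were called higher, led by *Itgb3* (1.86), a share near the 20.7% of all genes, and *Itgb6*, an epithelial chain, was called lower (-1.18), where 10.2% of all genes were called lower.

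**Figure D4:**
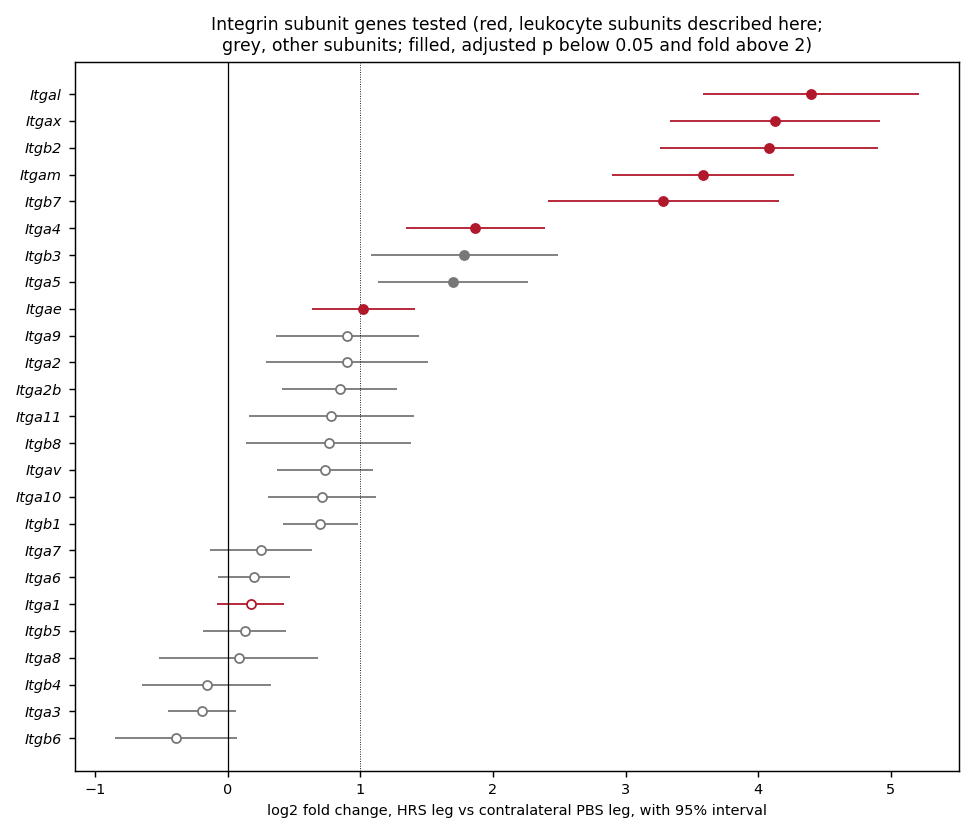
Log2 fold change in HRS against contralateral legs, with 95% intervals, of 25 integrin subunit genes, with the 8 leukocyte subunits in red and called genes filled. The 6 largest values belong to leukocyte subunits, and *Itga1* lies among the subunits that were not called.

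Of 12 other integrin ligands, 9 were tested, and 4 were called higher and 0 lower, with a median of 0.76, beside 16.9% and 6.27% of all tested genes. These were the matrix ligands *Spp1* (3.58, SE 0.75), *Thbs1* (2.49, SE 0.51) and *Fn1* (2.48, SE 0.50), and complement *C3* (1.99, SE 0.37), whose cleaved form binds Mac-1. The HRS leg of m866 lay below its own PBS leg for *Spp1* (4.49 against 7.59), *Thbs1* (12.2 against 14.5) and *Fn1* (164 against 189), so that the groups overlapped for these 3, whereas *C3* was at 513 to 2014 against 117 to 403 without overlap. *Icam2*, a ligand of LFA-1 found on resting endothelium, had 0.49 (SE 0.13), *Jam2* -0.35, *Jam3* 0.76, *F11r* 0.47 and *Cdh1*, the E-cadherin gene, -0.63 (SE 0.38). *Madcam1*, the ligand for the *Itga4* and *Itgb7* pair, did not pass the filter. It was listed at 0 in all 4 PBS-only legs and in 4 of 5 contralateral legs, and at 0 to 0.304 in HRS legs, so that little can be said at this depth.

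Among genes that regulate integrin activation inside leukocytes, 11 of 16 were called higher and 0 lower, with a median of 2.26, where 16.9% of all tested genes were called higher. *Lcp2* (SLP-76, a signalling adaptor) led with 3.64 (SE 0.32), and *Fermt3* (kindlin-3), which binds beta chains directly, had 3.46 (SE 0.31). *Tln1* (talin), used by most cells, had 0.80 (SE 0.13), *Rap1b* 1.72 (SE 0.16) and *Rap1a* 0.16 (SE 0.09). The list also holds genes known to restrain integrins, with *Cytip* called higher (2.78, SE 0.34) and *Sharpin* at 0.06 (SE 0.10). Of 8 tested genes for selectins and selectin ligands, 6 were called higher (again beside 16.9% of all genes), led by *Selplg* (the selectin ligand PSGL-1, 3.35, SE 0.36) and including *Selp* (1.73) and *Sele* (1.53), the last 2 being endothelial selectins. Means under the filter minimum in both PBS groups were found for 2 of the 8 (*Sele* and *Fut7*) and, in the preceding list, for 1 of the 16 (*Skap1*), all called higher. These genes were tested only through the groups where they were high, and their calls are no support for a change. Of 8 tested genes of endothelial junctions, 0 were called in either direction by limma, with a median of 0.06, although *Cd99l2* had an adjusted p of 0.00181 at -0.78.

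Cell markers moved with these genes, and their counts called higher stand beside 16.9% of all tested genes. Of the tested markers, 6 of 6 for NK cells, 6 of 6 for B cells, 5 of 6 for neutrophils, 4 of 7 for T cells and 2 of 7 for dendritic cells had means under the filter minimum of 0.5 in both PBS groups, so they were tested only through the groups where they were high, and their counts are a description. Leukocyte markers were called higher in 6 of 6 cases, led by *Cd52* (log2 fold change 4.21). Macrophage markers were called higher in 7 of 7 cases, led by *Adgre1* (4.13), and summed to 975.5 to 4955 in HRS and 101.5 to 269 in contralateral legs. T cell markers (6 of 7 higher, led by *Cd3g* at 2.67) summed to 14.4 to 80.7 against 4.01 to 4.79. NK cell markers (6 of 6, led by *Klrb1c* at 2.55) summed to 8.85 to 23.9 against 0.176 to 1.75, and B cell markers (5 of 6, led by *Cd22* at 3.37) to 5.00 to 40.2 against 0.794 to 1.62. Neutrophil markers (6 of 6 tested, led by *Csf3r* at 4.19) summed to 10.6 to 123 against 1.02 to 3.65, but *Ly6g* was at or under 3 reads in all contralateral, PBS-only and HRS-MBP libraries and did not pass the filter. Also at or under 3 reads throughout a group were *Mmp8* (contralateral and PBS-only), *Retnlg*, *Cd5* and *Klra8* (PBS-only) and *Cd6* (contralateral). Dendritic cell markers were called in 5 of 7 cases, with log2 fold changes from 0.08 to 2.65 (*Ccr7*, admitted only through its high groups). Mast cell markers were called in 1 of 5 cases (*Kit*, 1.20), near the share of all genes, with a median of -0.19 for the list. Fibroblast markers were called in 3 of 7 cases (led by *Col1a1* at 3.40) and satellite cell markers in 0 of 4. Endothelial markers were called in 0 of 8 cases and summed to 395 to 477 against 389 to 451. Skeletal muscle fiber markers, which define the tissue, summed to 36670 to 158100 in HRS and 113100 to 185800 in contralateral legs and were called lower in 4 of 7 cases, with *Actn3* lowest at -1.43, where 6.27% of all genes were called lower. In m866 the sum went the other way, with 158100 in the HRS leg and 113100 in the PBS leg. The part of each cell type in the changes of the 10 genes was not tested.

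Across the 16 libraries, the genes with the profile most like each of the 10 were found by Pearson correlation of log2 values, as a description, since libraries of 1 group share their level. For *Itgal* they were *Hk3* (r = 0.997) and *Gimap3* (0.997), for *Itgb2* *Cybb* (0.998) and *Cd300ld* (0.998), for *Itgam* *Adgre1* (0.995) and *Cd48* (0.995), and for *Itgax* *Cdk6* (0.990) and *Aspm* (0.989). *Itgb7* was most like *H2-DMa* (0.995) and *Cd74* (0.995), genes of antigen presentation, *Itga4* like *Smap2* (0.982) and *A530040E14Rik* (0.981), and *Itgae* like *Cd244a* (0.987) and *Lrrc25* (0.984). The ligands were most like *Gm8995* (0.996) and *Themis2* (0.994) for *Icam1*, and *Lyn* (0.995) and *Rinl* (0.994) for *Vcam1*. *Itga1* had lower values, with *Zfp366* (0.849) and *Mmrn2* (0.833), the latter a gene of vascular endothelium.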

How the data were processed

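Bulk RNA from mouse hamstring muscle was analysed in 16 libraries. The authors deposited normalized counts per gene, which are treated as a signal. Counting, annotation and scaling are not given in the sources used here. The submitters' processing notes name STAR 2.7.8a, limma and the builds mm39 and GRCm39, but 98.9% of 25652 matched genes had the start and end of GENCODE M21 (GRCm38), which was used. In each library 74.6% to 76.8% of low values fell within 0.02 of a multiple of a smallest step, too few to recover reads, so the main fit used no count model. That step gave the implied depth and the implied reads of the limma-voom alternative, which is approximate for this reason.

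Values were tested in R 4.3.3 with limma 3.58.1 and a mean trend, in 1 fit of 4 groups without a block. The scale was log2(normalized count + 0.5), and a mean of 0.5 or more was required. A call needed an adjusted p below 0.05 and an absolute log2 fold change above 1. Ratios used exact permutation, and mice exact sign flips. The limma fit was tested on simulated data. Legs of a mouse are paired by the mouse number in the labels, with a correlation of deviations of -0.37 to 0.16 within mice. The genes described, the lists and the tests were chosen with earlier results of these data known. Named besides the 10 genes were partners and markers, the largest called change of each list and calls against their list, other integrin subunits and ligands, and the most similar genes. Further listed genes (*Rap1a*, *Rap1b*, *Tln1*, *Fermt3*, *Selp*, *Sele*, *Cytip*, *Sharpin*, *Fut7*, *Skap1*, *Cd99l2*, *Ly6g*, *Mmp8*, *Retnlg*, *Cd5*, *Klra8* and *Cd6*) were picked after their values were seen, and 1 gene was left out of the selectin list and is not reported here. Alternatives covered the pseudocount, filter, scaling, variance model, block and mice left out.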

Additional observations from a re-analysis of the deposited data

Results flagged for a closer look

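In the HRS legs, the leg of mouse m864 stood far above the other 4 for 5 of the 10 genes on the scale of normalized counts. *Itgal* was at 127 there against 20.9 to 39.4 in the others, *Itga4* at 68.1 against 22.1 to 33.5, *Itgb7* at 91.5 against 12.3 to 32.7, *Icam1* at 149 against 43.6 to 52.4 and *Vcam1* at 94.3 against 23.4 to 37.0. The gap to the next leg took 0.742 to 0.917 of the whole range on this scale. Gaps on the log2 scale, where high values stand out less, were not examined. In total 30 groups of values were examined, and about 1 in 20 would stand out by chance if they were independent, which these are not, since all 5 come from 1 leg. The sum of leukocyte markers in this leg was 1274, against 291 to 659 in the other HRS legs, and its part in the values was not tested.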

How the results depend on the processing

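Of the 10 genes, 8 to 9 were called higher in HRS against contralateral legs under each alternative, 8 to 9 against PBS-only mice, 8 to 9 in HRS-MBP against PBS-only mice and 0 in contralateral legs against PBS-only mice. The count that moved was that of HRS-MBP against HRS legs, which ranged from 0 to 6 with 1 mouse left out; leaving out an HRS-MBP mouse assumes that the other varies like the remaining groups. With mouse as a replicate block, fixed or random, 9 of 10 genes were called in HRS against contralateral legs, and the paired fit changed no call of a member. *Itgae* was below the fold threshold with a pseudocount of 2 (0.44), quantile normalization (0.65) and median-of-ratios scaling (0.98), and gave 1.98 with limma-voom.

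Sign changes of fold changes all concerned values that were not called. For *Itga1*, HRS against PBS-only turned to -0.076 with quantile normalization and -0.019 with median-of-ratios scaling (leave-one-out -0.0175 to 0.22), HRS-MBP against PBS-only to -0.081 with quantile normalization (-0.0069 to 0.23), and HRS-MBP against HRS to -0.0054 with quantile normalization (-0.054 to 0.10). *Itgax* in HRS-MBP against HRS ranged from -0.13 to 0.76 with a mouse left out. In contralateral against PBS-only legs, *Itgal* gave -0.0100 with quantile normalization, *Itgax* 0.011 with the lowest pseudocount and 0.13 with limma-voom, *Itgb7* 0.054 and *Itgae* 0.020 with limma-voom, and *Vcam1* -0.080, -0.050, -0.017 and -0.00066 with quantile normalization, median-of-ratios scaling, an equal total for every library (chosen after the data were seen) and averaged PBS-only legs. With each mouse left out, the ranges there were -0.20 to 0.34 for *Itgal*, -0.18 to 0.65 for *Itgam*, -0.31 to 0.31 for *Itgax*, -0.19 to 0.46 for *Itgb2*, -0.39 to 0.30 for *Itgb7*, -0.31 to 0.19 for *Itgae*, -0.19 to 0.051 for *Itga1*, -0.0059 to 0.51 for *Icam1* and -0.18 to 0.18 for *Vcam1*. With a pseudocount of 2, the log2 ratio of *Itgal* to *Itgb2* gave -0.21 and that of *Itgax* to *Itgb2* -0.70 (exact p = 0.0238, against 0.44 and exact p = 0.0476 with the lowest pseudocount), and with a mouse left out the latter ranged from -0.018 to 0.16 and that of *Itgb2* to *Ptprc* from -0.0073 to 0.23. The cause of these changes was not tested. Low genes such as *Itgae* are limited by the depth of the PBS-only legs, where 3 reads are worth up to 0.364.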
